A study of Mus musculus with 33 samples.

Results

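DNA replication and S phase genes were followed through mouse endothelial cells of 3 stages, with and without added Runx1. The group held 48 genes chosen by name, for their known roles in copying DNA, from the 25239 genes of the expression table. All 48 were found in the table and all 48 passed the filter on low values, among 12546 genes that did. By role, 11 act in licensing replication origins, 4 in starting the helicase, 14 as polymerase, primase, clamp or lagging-strand factors, 5 in nucleotide supply, 6 in control of the G1/S step, and 8 in chromatin copying, repair and fork checkpoints. No expression value was used to choose them, but results of these data were known when the list was drawn up.

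RNA-seq was made from 13 libraries of endothelial cells sorted as CD41-, CD45-, Ter119-, CD31+ and VEC+, with low or positive cKIT. RUNX1, a transcription factor that drives blood formation from endothelium, was added from a conditional knock-in allele, CKI. The E9.5 groups came from whole embryos on a C57BL/6J-129Sv/J x B6C3F1 background, from superovulated females: Ctrl was CKI/+ and 1Runx1 was Cre; CKI/+. The E13.5 groups came from whole fetuses and the liver groups from adults aged 4 to 6 weeks, both on a C57BL/6J-129Sv/J background. There, Ctrl was labelled CKI/CKI; CKI/+, 1Runx1 at E13.5 was Cre; CKI/+, and 2Runx1 was Cre; CKI/CKI. Since every Ctrl label names knock-in alleles and no Cre, the presence of Cre and of added Runx1 cannot be told apart. Tamoxifen (2 mg) was given 24 h before harvest to the pregnant females at both embryonic stages, and adult females received the same dose by oral gavage. Neither the time from gavage to harvest nor the Cre driver is named in the sources read here. Each group had 2 RNA libraries, except E13.5 Ctrl, which had 1. That library served as the control of both E13.5 Runx1 groups and of every comparison of E13.5 Ctrl with another stage. Nothing in the labels ties replicates to separate animals, and p-values therefore cover the spread among these libraries alone, which could be technical.

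Before a cell copies its DNA, the origin recognition complex, CDC6 and CDT1 load the MCM2-7 helicase onto origins in G1, a step called licensing. At the start of S phase CDC45 and GINS join MCM2-7 to form the active helicase, and polymerase α-primase, the PCNA clamp, the RFC clamp loader and polymerases δ and ε copy the strands. Many of these genes are transcribed together at the G1/S step, when cyclin E-CDK2 activity releases E2F transcription factors from RB proteins. In embryos blood vessels grow and their endothelial cells divide, whereas most endothelial cells of a healthy adult organ are quiescent.

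E2F factors bind words such as TTTCGCGC or TTTCCCGC near the starts of replication genes, so the windows from 250 bases before to 50 bases after the start were searched on both strands for 4 words (TTTGGCGC, TTTCCCGC, TTTGCCGC and TTTCGCGC). Windows came from RefSeq's GRCm38.p6 annotation, which gave one or more for 40 of the 48 genes, and none was used for Ccne2, Pole, Mcm4, Gins1, Prim2, Exo1, Gins2 and Gmnn. An E2F word stood in 17 of the 40 genes (42.5%) and in 4.87% of the 9848 tested genes that had a window, or by window in 37.0% of the 46 of these genes and 2.28% of all 32619. The words CCAAT and CHR (TTTGAA or TTCGAA), known from late cell cycle genes, were found in 57.5% and 17.5% of the 40 genes, against 43.2% and 16.4% of the tested genes. E2F words overlapped each other in Mcm5 and Mcm6, and one overlapped a CCAAT word in Mcm7. The following 5 windows are shown 5′ to 3′ on the gene's strand: Uhrf1 (chr17:56304063-56304362, plus strand), Cdc6 (chr11:98907901-98908200, plus) and Hells (chr19:38930740-38931039, plus), the 3 genes with an E2F word that differed most between liver and E9.5 controls. Next to them stand Rrm2 (chr12:24708004-24708303, plus), which differed most of the genes with none of these words in its window, and Pola2 (chr19:5964157-5964456, minus). Pola2 was chosen after its values were seen, because it alone was called higher in liver controls in the deposited values. Capitals mark the E2F word.
Uhrf1: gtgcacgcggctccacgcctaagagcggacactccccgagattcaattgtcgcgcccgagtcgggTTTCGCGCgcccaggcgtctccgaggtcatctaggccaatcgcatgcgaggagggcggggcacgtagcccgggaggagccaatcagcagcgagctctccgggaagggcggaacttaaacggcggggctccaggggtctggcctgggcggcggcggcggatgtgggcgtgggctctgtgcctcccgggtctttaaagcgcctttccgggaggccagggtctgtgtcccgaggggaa
Cdc6: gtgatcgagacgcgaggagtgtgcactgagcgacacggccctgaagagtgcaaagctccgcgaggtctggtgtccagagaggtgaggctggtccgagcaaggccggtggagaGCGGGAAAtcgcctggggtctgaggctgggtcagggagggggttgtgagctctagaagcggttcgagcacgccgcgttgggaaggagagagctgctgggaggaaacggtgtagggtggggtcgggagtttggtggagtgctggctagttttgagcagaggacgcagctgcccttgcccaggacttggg
Hells: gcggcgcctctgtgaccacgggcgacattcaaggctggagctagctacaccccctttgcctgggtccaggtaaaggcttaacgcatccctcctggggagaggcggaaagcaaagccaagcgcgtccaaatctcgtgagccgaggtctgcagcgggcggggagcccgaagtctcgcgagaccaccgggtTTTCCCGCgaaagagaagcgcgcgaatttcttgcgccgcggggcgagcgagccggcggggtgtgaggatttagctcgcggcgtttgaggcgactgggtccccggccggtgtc
Rrm2: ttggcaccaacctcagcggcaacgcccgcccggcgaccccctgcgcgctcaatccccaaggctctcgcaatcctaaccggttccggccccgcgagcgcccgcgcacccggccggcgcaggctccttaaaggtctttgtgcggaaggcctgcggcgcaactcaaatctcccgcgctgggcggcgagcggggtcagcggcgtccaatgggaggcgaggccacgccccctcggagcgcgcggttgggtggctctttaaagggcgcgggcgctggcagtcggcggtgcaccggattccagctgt
Pola2: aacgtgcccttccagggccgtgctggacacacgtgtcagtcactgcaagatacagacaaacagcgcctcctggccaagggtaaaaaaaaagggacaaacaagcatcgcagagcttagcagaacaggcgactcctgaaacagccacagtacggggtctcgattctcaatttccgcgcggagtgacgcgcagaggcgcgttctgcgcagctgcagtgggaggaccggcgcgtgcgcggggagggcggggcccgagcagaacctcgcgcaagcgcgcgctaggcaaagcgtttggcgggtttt

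The word in Uhrf1 reads TTTCGCGC on the gene's strand, and that of Hells reads TTTCCCGC. In Cdc6 the capitals read GCGGGAAA, which is TTTCCCGC on the other strand. A match is a description of the letters and does not show that a factor was bound. The 17 genes with an E2F word had a median difference of −3.15 on the log2 scale between liver and E9.5 controls, and the other 23 genes with a window one of −2.75. Their ranges overlapped, from −5.36 to −1.37 and from −5.69 to 0.20.

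Expression was deposited as RPKM (read counts divided by gene length and by a library size), resting on 37754246 to 44540403 recovered reads per library. The library size was the read total times a further factor. Against the mean of the 13 libraries, this factor was 1.02 to 1.04 at E9.5, 1.10 to 1.12 at E13.5 and 0.82 to 0.84 in the liver. Compared with read totals alone, it raises liver values relative to the embryo, and all comparisons between stages carry it. Differences are given on the log2(RPKM + 1) scale with standard errors, from limma fitted to all 13 libraries, and a gene was called at a Benjamini-Hochberg adjusted p under 0.05 over all 12546 genes. On that scale the change of low genes is understated, and genes ordered by size of difference are ordered on it unless a ratio is named. The library kit does not mark strand, so reads of overlapping genes cannot be told apart; 22 of the 48 genes overlap another annotated gene, 13 of them a protein-coding one. Runx1 itself stood at 0.904 to 1.53 RPKM in the 5 Ctrl libraries and at 14.9 to 78.4 RPKM in the 8 libraries with added Runx1. The 10 endothelial markers were detected in every group, with a summed level of 1928 to 4915 RPKM. Beside them, the summed level of 12 macrophage markers was 3.89 to 7.50 RPKM at E9.5, 35.8 to 56.5 at E13.5 and 754 to 870 in the liver; the sort had kept CD45- cells.

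Most of the 48 genes shared 1 order of groups. For 40 of the 48, all 4 E9.5 libraries were above all 5 E13.5 libraries, these above both liver 2Runx1 libraries, and these above both liver Ctrl libraries, a sequence seen in 11.8% of all genes tested. Taken step by step, 44 of the 48 were higher in every E9.5 than in every E13.5 library (28.0% of all genes), 44 in every E13.5 than in every liver 2Runx1 library (39.2%), and 48 in both liver 2Runx1 than in both liver Ctrl libraries (37.0%). Tk1, E2f1, E2f2 and E2f8 missed the first step, and Mcm3, Orc6, Pola2 and Timeless the second. Summed over the 48 genes, the level was 2644 to 2672 RPKM at E9.5, 1697 to 1889 at E13.5, 838 to 860 in liver 2Runx1 and 437 to 450.5 in liver Ctrl. The E9.5 Ctrl and 1Runx1 libraries overlapped in this sum, the E13.5 Ctrl library lay between the 1Runx1 libraries and below both 2Runx1 libraries, and the liver groups were apart.

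**Figure D1:**
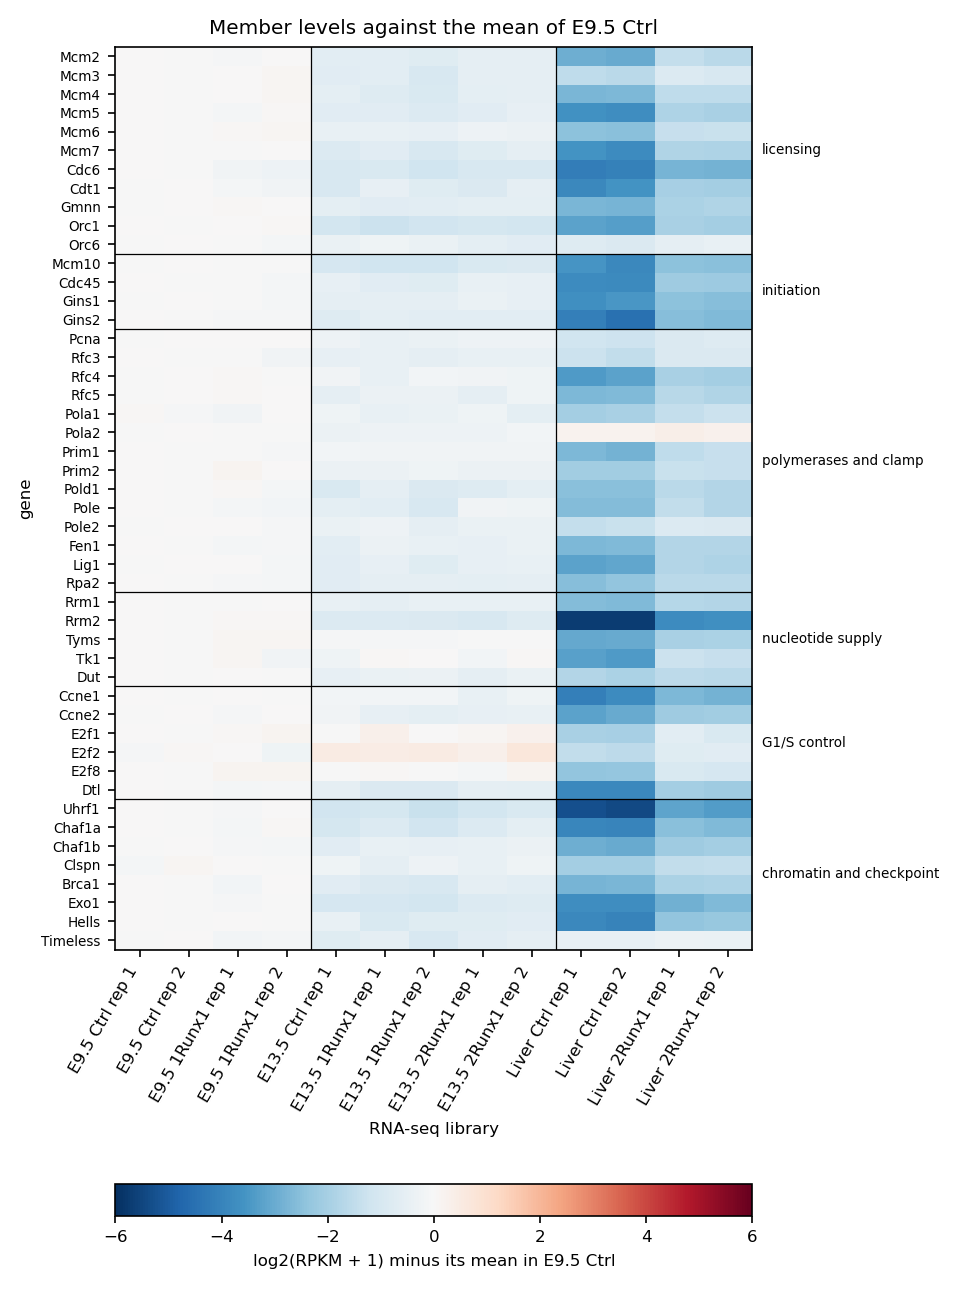
Level of each of the 48 genes (rows, grouped by role) in each of the 13 libraries (columns), as log2(RPKM + 1) minus the gene's mean in the 2 E9.5 Ctrl libraries; blue is lower and red higher. The 4 E9.5 columns look alike, the 5 E13.5 columns are mostly pale blue, and the liver Ctrl columns are the darkest, with Pola2 the row that is pale red in all 4 liver columns.

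From E9.5 to E13.5 most of the genes fell in the control cells, to a median of 67.6% of the E9.5 level. Of the 48, 37 were lower and 1 was higher in E13.5 Ctrl, against 26.4% and 22.3% of all genes, with a median difference of −0.54 where that of all genes was −0.02. All 11 licensing genes and all 4 initiation genes fell, 11 of 14 polymerase and clamp genes, 3 of 5 for nucleotide supply, 7 of 8 for chromatin and checkpoints, and 1 of 6 for G1/S control. In bulk libraries of sorted cells, fewer cells with a transcript and less of it per cell cannot be told apart. Stage, source (whole embryo or whole fetus), strain background, labelled control genotype and superovulation of the females changed together between E9.5 and E13.5. Their parts cannot be told apart, and the E13.5 value rests on 1 library. Markers of other cells were higher in the same E13.5 Ctrl library. Erythroid markers were called higher for 8 of 9 tested and lower for 1 (summed 1190 RPKM against 136 at E9.5, with Hba-a1, Hbb-bt and Hbb-bs at 0 in both), and hepatocyte markers higher for 9 of 11 (266 against 19.2 to 20.2, Cyp3a11 at 0 in both). Macrophage markers were higher for 9 of 12 (56.5 against 3.89 to 4.04, Cd163 at 0 in both), mesenchymal markers for 7 of 9 with 1 lower (151 against 63.6 to 65.4), neutrophil and mast cell markers for 5 of 6 (36.5 against 1.54 to 1.81), megakaryocyte markers for 2 of 4, pan-haematopoietic markers for 2 of 6 and endothelial markers for 4 of 10. Their part in the fall of the 48 genes was not tested.

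Uhrf1, which brings the maintenance methyltransferase DNMT1 to newly copied DNA, showed the largest decrease on the log2(RPKM + 1) scale. Its level was 127 and 126 RPKM in E9.5 Ctrl and 56.5 in E13.5 Ctrl, a difference of −1.15 ± 0.13 (adjusted p = 7.71e-05). The 9 next largest were in Orc1 (−1.10), an ATPase subunit of the origin recognition complex and lowest by ratio (42.5% of E9.5 against 44.7% for Uhrf1), Chaf1a (−1.03), the large subunit of chromatin assembly factor 1, and Exo1 (−1.02), a 5′ exonuclease of mismatch repair. They continued with Mcm10 (−0.99), Cdc6 (−0.97), Cdt1 (−0.95), Pold1 (−0.93), Mcm7 (−0.84) and Rrm2 (−0.81). Adjusted p for these 10 lay between 8.77e-06 and 0.000407, and in each both E9.5 Ctrl libraries were above the E13.5 Ctrl library.

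Of the 6 G1/S regulators 1 rose, 1 fell and 4 were not called in this step. E2f2, an activator E2F, was the 1 gene that was higher, at 2.88 and 3.26 RPKM in E9.5 Ctrl and 4.64 in E13.5 Ctrl (0.47 ± 0.16, adjusted p = 0.033). That call was lost without either E9.5 Ctrl library (adjusted p = 0.129 and 0.0520). E2f1, another activator, stood at 16.1 and 15.0 and then 15.5 RPKM (0.00 ± 0.13), and E2f8, a repressor of the family, at 6.69 and 6.30 and 6.42 (−0.01 ± 0.12). Neither was called (adjusted p = 1.00 and 0.932), and their 95% intervals were −0.28 to 0.28 and −0.28 to 0.25. The cyclin E genes Ccne1 (−0.16) and Ccne2 (−0.20) were not called either, nor were Tyms (−0.06), Prim1 (−0.17), Rfc4 (−0.23), Pola1 (−0.23), Clspn (−0.24) and Tk1 (−0.25). Dtl (−0.53), whose ubiquitin ligase destroys CDT1 in S phase, was the gene of this role that fell.

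In adult liver endothelium the fall was far larger. Liver Ctrl stood at a median of 9.78% of the E9.5 Ctrl level and 12.9% of the E13.5 Ctrl level. Against E13.5 Ctrl, 46 of the 48 genes were lower and 1 was higher, where 38.6% and 40.6% of all genes were, and the median difference was −2.26 (all genes 0.02). Against E9.5 Ctrl, 47 were lower and 1 higher, where 42.7% of all genes were called in each direction, and the median was −2.77 (all genes −0.01). The 10 largest decreases from E13.5 were in Rrm2 (−4.88), Uhrf1 (−4.21), Ccne1 (−3.79), Gins2 (−3.52), Hells (−3.51), Dtl (−3.33), Cdc45 (−3.31), Cdc6 (−3.14), Rfc4 (−3.08) and Tk1 (−3.07), with adjusted p between 5.05e-12 and 3.84e-09. Source organ, age and, for E9.5, strain background, labelled control genotype and superovulation differ with the stage and cannot be told apart. Macrophage markers rose in the same comparisons, 12 of 12 against both stages, with a summed 869 to 870 RPKM in liver Ctrl. Most of that sum was Mrc1 (679 and 674 RPKM), which liver sinusoidal endothelium is also known to express. Next stood Lyz2 at 55.7 and 60.1, C1qb at 56.4 and 53.1 and C1qc at 23.2 and 24.5. Clec4f, of Kupffer cells, stood at 17.96 and 18.3, Cd68 at 5.01 and 4.95 and Adgre1 at 3.33 and 3.97. Hepatocyte markers were called higher than at E9.5 for 10 of 11 and lower for 1, and against E13.5 for 3 and 5. Mesenchymal markers were lower than at E13.5 for 7 of 9 and higher for 1, and against E9.5 lower for 6 and higher for 3. Erythroid markers were lower than at E13.5 for 8 of 9 tested of a list of 12, and higher for 1. Their sum was 35.6 to 37.1 against 1190 RPKM, with Hba-a1, Hbb-bt and Hbb-bs at 0 in both groups. Against E9.5 erythroid markers were higher for 2 and lower for 2. The part of any of these cells in the result was not tested.

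Licensing genes were all lower in the liver. Mcm5, a subunit of the MCM2-7 helicase, stood at 143 and 136 RPKM in E9.5 Ctrl, 86.1 in E13.5 Ctrl and 10.2 and 9.76 in liver Ctrl. The liver libraries were far below both embryonic stages without overlap, and the difference from E9.5 was −3.68 ± 0.08 (adjusted p = 1.26e-11). Its partners Mcm7 (−3.68), Mcm2 (−2.98), Mcm4 (−2.71) and Mcm6 (−2.49) fell as well, and Mcm3 by the least (−1.57), so that the 6 subunits of this complex kept from 6.97% (Mcm7) to 33.4% (Mcm3) of the E9.5 level. Cdc6, the ATPase that loads MCM2-7, fell further: it stood at 25.3 and 23.9 RPKM in E9.5 Ctrl, 12.1 in E13.5 Ctrl and 0.460 and 0.518 in liver Ctrl (−4.11 ± 0.09, adjusted p = 1.43e-11). The loader Cdt1 (−3.74), its inhibitor geminin, Gmnn (−2.78), and Orc1 (−3.24) fell as well.

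Orc6, the smallest subunit of the origin recognition complex, changed least among the licensing genes. It stood at 56.6 and 57.7 RPKM in E9.5 Ctrl, 42.7 in E13.5 Ctrl and 32.8 and 31.0 in liver Ctrl, 55.7% of the E9.5 level. The liver libraries were still the lowest of the 3 control groups, and the difference from E9.5 was −0.82 ± 0.06 (adjusted p = 1.55e-07).

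All 4 initiation genes fell to a narrow range of 2.94% to 4.76% of the E9.5 level. Cdc45, part of the active helicase, stood at 37.5 and 35.9 RPKM in E9.5 Ctrl, 25.8 in E13.5 Ctrl and 1.76 and 1.67 in liver Ctrl (−3.80 ± 0.06, adjusted p = 1.31e-12). The GINS subunits Gins2 (−4.28) and Gins1 (−3.59) and Mcm10 (−3.72), which helps activate the helicase, were the others, and none of the 4 had a liver library within the range of the embryos.

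Polymerase and clamp genes spread more widely, from 8.12% to 115% of the E9.5 level, with a median of 16.4%. Rfc4, a clamp loader subunit, fell most (−3.31 ± 0.09, adjusted p = 6.79e-11), from 44.4 and 46.5 RPKM in E9.5 Ctrl to 3.44 and 3.94 in liver Ctrl, while its partner Rfc3 went from 62.0 and 61.1 to 24.2 and 21.7 (−1.39 ± 0.07). Subunits of one complex thus kept 8.12% and 37.3% of their E9.5 levels. Pcna, the sliding clamp, which also serves DNA repair, stood at 149 and 155 RPKM in E9.5 Ctrl, 121 in E13.5 Ctrl and 66.3 and 63.3 in liver Ctrl (−1.22 ± 0.05, adjusted p = 7.13e-10). It had the highest level of the 48 in both liver Ctrl libraries, and these did not reach the embryonic range. Lig1 (−3.15), the ligase of the lagging strand, Fen1 (−2.68), its flap nuclease, the primase subunits Prim1 (−2.77) and Prim2 (−2.09), Rfc5 (−2.67), and Rpa2 (−2.47), which coats single-stranded DNA, also fell. So did the catalytic subunits Pole (−2.60) and Pold1 (−2.52) of the leading- and lagging-strand polymerases and Pola1 (−2.00) of polymerase α, and Pole2 (−1.37), a small subunit of polymerase ε.

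Pola2, the regulatory subunit of polymerase α, was the exception. It stood at 33.0 and 34.9 RPKM in E9.5 Ctrl, 26.7 in E13.5 Ctrl and 39.5 and 38.9 in liver Ctrl. Both liver libraries were above all control libraries of the embryos, by 0.54 ± 0.07 against E13.5 (adjusted p = 4.45e-05) and 0.20 ± 0.06 against E9.5 (adjusted p = 0.00837). The latter call was lost without E9.5 Ctrl replicate 1 (0.16, adjusted p = 0.0735) and with quantile normalization (0.10, adjusted p = 0.0988). In recovered reads, Pola2 had 3873 and 4403 in E9.5 Ctrl, of totals of 38918863 and 41796873. Liver Ctrl had 3630 and 3687, of 38649975 and 39468230, a smaller share of the total. The difference from E9.5 thus rests on the further library factor. Pola1, the partner of Pola2, went from 13.8 and 12.8 to 2.46 and 2.68 RPKM over the same stages.

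**Figure D2:**
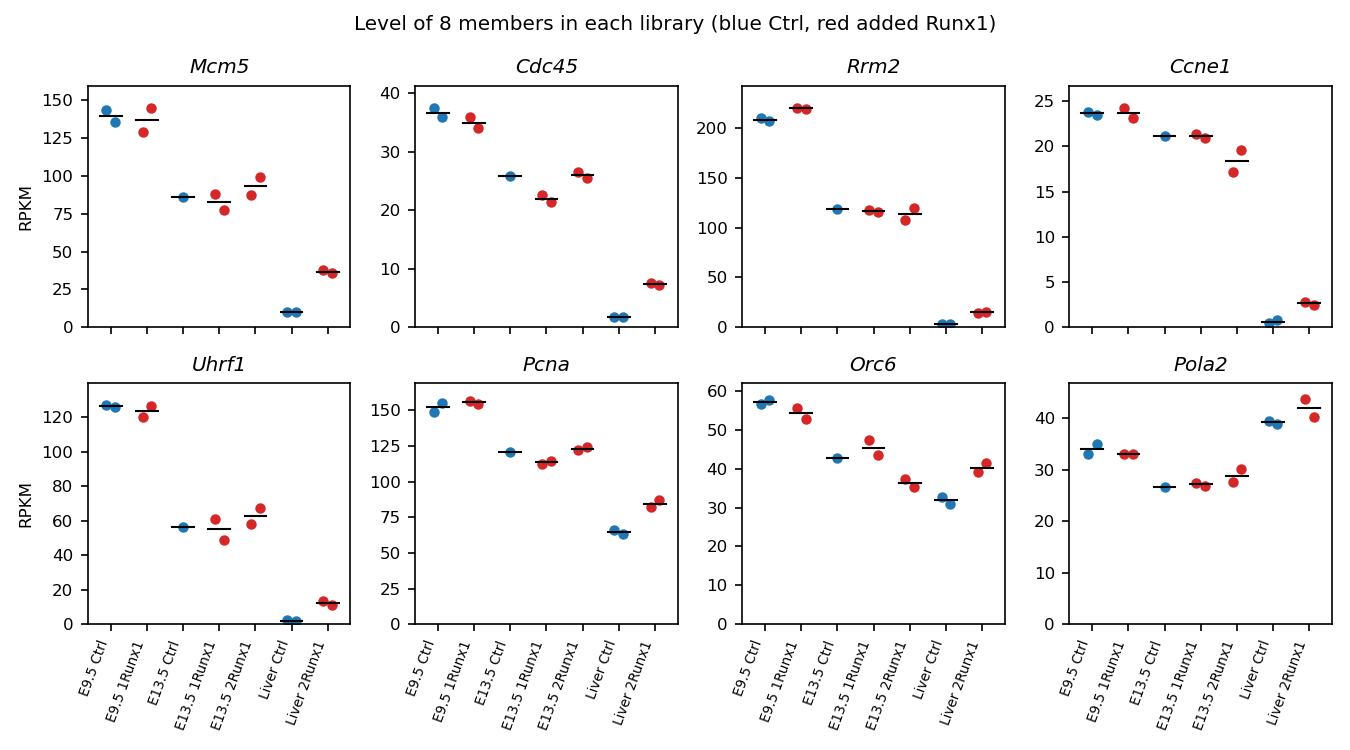
RPKM (linear axis from 0) of 8 genes in every library, in the 7 groups; each point is 1 library, blue for Ctrl and red for added Runx1, and the line is the group mean. Mcm5, Cdc45, Rrm2, Ccne1 and Uhrf1 drop to near the axis in liver Ctrl and stand higher in liver 2Runx1, Pcna and Orc6 fall less, and Pola2 is highest in the liver.

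Nucleotide supply included the largest fall on the log2 scale. Rrm2, the S phase subunit of ribonucleotide reductase, stood at 209.8 and 207 RPKM in E9.5 Ctrl, 119 in E13.5 Ctrl and 3.01 and 3.10 in liver Ctrl. Its level was 68.2-fold higher in E9.5 Ctrl than in liver Ctrl, a difference of −5.69 ± 0.05 on the log2(RPKM + 1) scale (adjusted p = 1.07e-13). The other subunit, Rrm1, went from 126 and 125 RPKM to 19.8 and 19.0 (−2.63), 15.5% of its E9.5 level, where Rrm2 kept 1.47%. Tk1 (−3.32), which salvages thymidine, and Tyms (−3.04), which makes dTMP, fell too, and Dut (−1.84), which removes dUTP, by the least of the 5.

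Among the G1/S regulators Ccne1, encoding cyclin E1, stood at 23.8 and 23.5 RPKM in E9.5 Ctrl, 21.1 in E13.5 Ctrl and 0.447 and 0.774 in liver Ctrl. Its levels in the 2 embryonic control groups were close, and those of the liver stood apart (−3.79 ± 0.12 against E13.5, adjusted p = 5.17e-10). Ccne2 (−2.91), Dtl (−3.33), E2f8 (−2.32), E2f2 (−1.99) and E2f1 (−1.96) fell over the same interval, so the G1/S genes that were not called between E9.5 and E13.5 were all lower in the liver.

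Chromatin and checkpoint genes held the largest fall by ratio. Exo1 went from 15.3 and 14.3 RPKM in E9.5 Ctrl to 0.199 and 0.204 in liver Ctrl, 73.6-fold higher in the embryo. Uhrf1 went from 127 and 126 to 2.25 and 1.97 RPKM (−5.36 ± 0.11, adjusted p = 7.66e-12). Hells (−3.94), a chromatin remodeller needed for DNA methylation, Chaf1a (−3.94), Chaf1b (−2.97), Brca1 (−2.75), which acts in recombination repair, and Clspn (−2.05), the adaptor of the checkpoint kinase CHK1, fell as well. Timeless, of the fork protection complex, stood at 19.8 and 20.2 RPKM in E9.5 Ctrl, 11.8 in E13.5 Ctrl and 13.7 and 14.0 in liver Ctrl. Liver was below E9.5 (−0.50 ± 0.11, adjusted p = 0.00144) but not separable from E13.5 (0.21 ± 0.14, 95% interval −0.09 to 0.51, adjusted p = 0.176).

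Genes of neighbouring pathways were read from 3 further lists. Of 55 other replication and repair genes, 52 were lower and 2 higher in liver Ctrl than in E9.5 Ctrl (median −1.80), among them Cdca7 (−4.85 ± 0.07), a partner of HELLS, and Asf1b (−4.18), a histone chaperone. Between E9.5 and E13.5, 36 of these fell and 1 rose (median −0.37), where 26.4% and 22.3% of all genes did. Against E13.5 Ctrl 48 were lower in the liver and 0 higher (median −1.30), where 38.6% and 40.6% of all genes were. All 30 mitosis genes were lower in the liver than at either embryonic stage (median −3.59 against E9.5 and −3.19 against E13.5), led by Ccnb1 (−5.23 ± 0.07), encoding cyclin B1, and Ube2c (−5.04), of the anaphase-promoting machinery. From E9.5 to E13.5, 23 of the 30 fell and 1 rose (median −0.42). Of 24 tested G1 regulators, 14 were lower and 9 higher in the liver than at E9.5, where 42.7% of all genes were called in each direction. Those lower included Mycn (−4.34), a growth-promoting MYC factor, Cdkn1c (−3.40), encoding the CDK inhibitor p57, and Tfdp1 (−3.16), the E2F partner. Those higher included the CDK inhibitor genes Cdkn2c (2.82) and Cdkn1a (2.78).

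With 1 added Runx1 copy at E9.5, 0 of the 48 genes were called in either direction by limma, against 0.861% of all genes higher and 0.327% lower. Limma-voom on recovered reads also gave 0, and 2 genes had an unadjusted p under 0.05: Cdc6 (−0.28 ± 0.09, adjusted p = 0.257) and Tyms (0.11 ± 0.05, adjusted p = 0.39). The median of the 48 was −0.03, and single values ran from −0.28 to 0.16 (E2f8). Mcm5 stood at 129 and 145 RPKM with 1Runx1 beside 143 and 136 in Ctrl, and Rrm2 at 219.8 and 219.5 beside 209.8 and 207. The Mcm5 libraries overlapped and those of Rrm2 did not, with 95% intervals of −0.21 to 0.15 and −0.05 to 0.20. Among the other roles, Cdc45 stood at 35.9 and 34.1 RPKM, Pcna at 156 and 155, Ccne1 at 24.2 and 23.1 and Uhrf1 at 120.4 and 126 with 1Runx1, where Ctrl had 37.5 and 35.9, 149 and 155, 23.8 and 23.5 and 127 and 126. Cdkn1a, whose product p21 inhibits CDK2 and binds PCNA, rose in the same comparison by 2.25 ± 0.12, from 8.48 and 7.59 to 36.9 and 47.3 RPKM (adjusted p = 5.43e-06). The other replication and mitosis lists had 0 calls of 55 and 30, and 1 gene of the 55 and 0 of the 30 had an unadjusted p under 0.05.

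With 1 added copy at E13.5, 3 of the 48 genes passed the test. Fen1 was higher (0.23 ± 0.07, adjusted p = 0.0491), and Hells (−0.40 ± 0.09, adjusted p = 0.0243) and Dtl (−0.34 ± 0.07, adjusted p = 0.0167) were lower. That is 1 gene higher and 2 lower, where 6.34% and 4.03% of all genes were, so the share called was near or under the background. Hells stood at 23.7 RPKM in the single Ctrl library and 16.8 and 18.7 in 1Runx1, and Dtl at 17.99 and 14.2 and 13.8. Both 1Runx1 libraries were below Ctrl for each gene, while for Fen1 both were above it (50.6 and 47.9 against 41.8 RPKM). The genes described by role stood close to the Ctrl library, Mcm5 at 87.8 and 77.8 RPKM with 1Runx1, Cdc45 at 22.5 and 21.4, Pcna at 113 and 115, Rrm2 at 118 and 115, Ccne1 at 21.3 and 20.9 and Uhrf1 at 61.3 and 48.8, none of them called. In a fit of the E13.5 groups compared alone none of the 3 was called. That fit called no gene at all, so it cannot tell these 3 from the rest. The calls of Hells (−0.32) and Fen1 (0.19) were lost without 1Runx1 replicate 1. Against the same Ctrl library, 8 of 11 hepatocyte markers and 5 of 9 erythroid markers were also lower in 1Runx1 (summed levels 204 to 207 against 266 RPKM and 468 to 579 against 1190 RPKM). Also lower were 5 of 12 macrophage markers (35.8 to 43.5 against 56.5 RPKM), 3 of 6 neutrophil and mast cell markers (11.4 to 15.4 against 36.5), 2 of 4 megakaryocyte markers (13.4 to 20.6 against 31.3) and 1 of 9 mesenchymal markers, while 4 of 10 endothelial markers were higher and 1 lower and 2 of 6 pan-haematopoietic markers higher and 1 lower. Of the hepatocyte markers 1 was higher. The part of any of these in the differences was not tested. In the list of other replication genes 6 were lower and 1 higher, led by Esco2 (−0.76), a cohesin acetyltransferase, and 4 of 30 mitosis genes were lower, led by Mki67 (−0.63). Cdkn1a was higher by 2.02 ± 0.15 (adjusted p = 5.47e-05).

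At E13.5 with both copies, 0 of the 48 genes were called by limma and 0 by limma-voom, and 7 had an unadjusted p under 0.05; 0.151% of all genes were higher and 0.12% lower. The median was 0.06. The widest departures were Pole (0.35 ± 0.14, 95% interval 0.05 to 0.65) and Ccne2 (−0.28 ± 0.10, 95% interval −0.51 to −0.06). Mcm5 stood at 87.3 and 99.5 RPKM beside 86.1 in Ctrl, Rrm2 at 108 and 119.5 beside 119, and Uhrf1 at 58.2 and 67.4 beside 56.5. Cdc45 stood at 26.6 and 25.4 RPKM, Pcna at 122 and 124 and Ccne1 at 17.2 and 19.6, beside 25.8, 121 and 21.1. For Rrm2 the Ctrl library lay between the 2Runx1 libraries, and for Mcm5 and Uhrf1 it lay below both. Cdkn1a stood at 15.6 and 14.6 RPKM beside 8.05 (0.83 ± 0.15, adjusted p = 0.0543). The other replication and mitosis lists had 0 calls of 55 and 30, with 6 and 3 genes at an unadjusted p under 0.05. Of the markers of other cells, 2 of 9 erythroid, 1 of 12 macrophage and 1 of 11 hepatocyte markers were called lower, and none higher. Summed erythroid markers were at 593 to 1227 RPKM with 2Runx1, beside 1190 in Ctrl. The part of these cells was not tested. This comparison and the preceding one share their only control library, so its own error enters both.

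Copy number at E13.5 was compared between 2Runx1 and 1Runx1, which do not share libraries. Runx1 RNA itself overlapped between them, at 28.9 and 23.7 RPKM with 1 copy and 22.7 and 25.2 with 2. The groups thus differ in labelled copies, without a higher Runx1 RNA level with 2. Of the 48 genes 5 were higher and 1 was lower with 2 copies, where 2.17% and 3.16% of all genes were. Pole, the catalytic subunit of polymerase ε, stood at 6.17 and 4.78 RPKM with 1 copy and 8.67 and 8.30 with 2, without overlap (0.56 ± 0.11, adjusted p = 0.0208). Also higher were Brca1 (0.35 ± 0.09, adjusted p = 0.0449), Dtl (0.32 ± 0.06, adjusted p = 0.0148), Mcm4 (0.28 ± 0.06, adjusted p = 0.0278) and Cdc45 (0.23 ± 0.06, adjusted p = 0.0478). Orc6 was lower, at 37.3 and 35.4 RPKM with 2 copies and 47.3 and 43.4 with 1 (−0.31 ± 0.06, adjusted p = 0.0181). Cdkn1a was lower with 2 copies than with 1 (−1.19 ± 0.12, adjusted p = 0.000694). The count of 6 was 0 in a fit of these 2 groups alone, which called only 4 of all genes. Each of the 6 calls was lost in some fit with 1 library left out. Without 1Runx1 replicate 1, for example, the calls of Orc6 (−0.25), Cdc45 (0.27) and Brca1 (0.39) were lost. Hepatocyte markers were also higher in 2Runx1 (7 of 11 tested, summed 195 to 282 against 204 to 207 RPKM), as were 3 of 12 macrophage markers and 1 each of 9 erythroid, 6 neutrophil and mast cell, and 9 mesenchymal markers, and their part was not tested.

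In adult liver, 2 added copies came with a rise of nearly the whole group. Of the 48 genes 46 were higher in 2Runx1 and 0 lower, against 17.1% and 8.14% of all genes, and all 48 had both 2Runx1 libraries above both Ctrl libraries. The median difference was 1.10 on the log2(RPKM + 1) scale, where that of all genes was 0.02. As ratios of RPKM the genes were 1.07-fold (Pola2) to 6.63-fold (Exo1) higher, with a median of 2.89. The rise left most of the genes below the embryo. Liver 2Runx1 stood at a median of 41.5% of the E13.5 Ctrl level, up from 12.9% in liver Ctrl. Pola2 and Timeless stood above E13.5 Ctrl, at 157% and 129% of its level. Pola2 (0.10 ± 0.06) and Timeless (0.14 ± 0.11) were the 2 genes not called (adjusted p = 0.29 and 0.431).

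**Figure D3:**
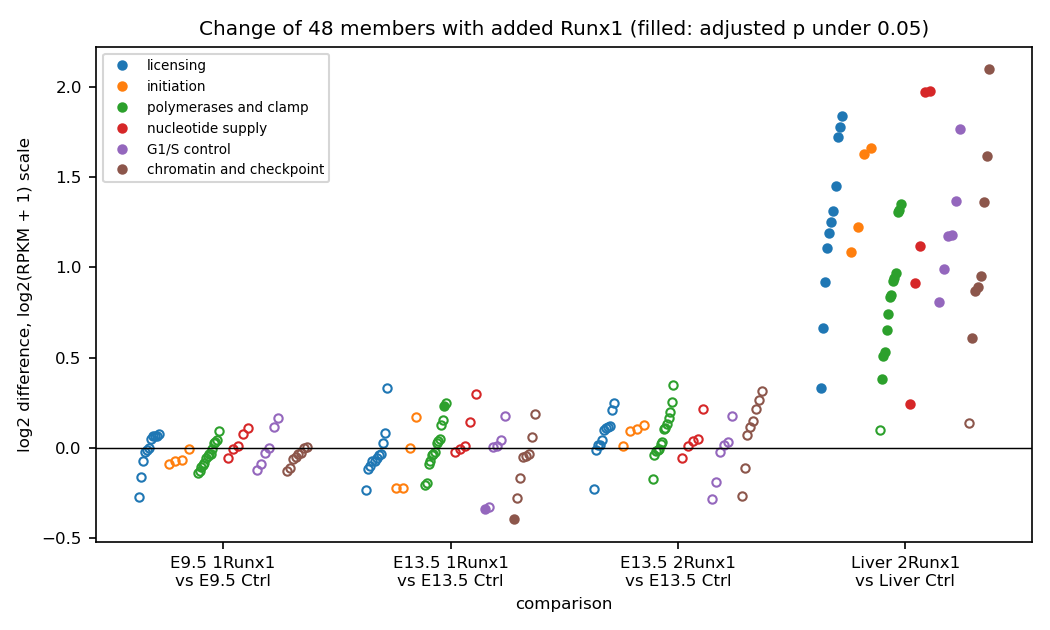
Difference on the log2(RPKM + 1) scale between each Runx1 group and the Ctrl of its stage for the 48 genes; each circle is 1 gene, coloured by role, filled where its adjusted p was under 0.05. At E9.5 and E13.5 the genes lie around 0, between −0.40 and 0.35, while in the liver they reach from 0.10 to 2.10.

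All 11 licensing genes rose in liver 2Runx1. Mcm7 went from 8.07 and 6.91 RPKM in Ctrl to 29.9 and 28.9 in 2Runx1 (1.84 ± 0.10, adjusted p = 3.8e-07), and Mcm5 from 10.2 and 9.76 to 37.7 and 35.8 (1.78 ± 0.08, adjusted p = 1.48e-07). The groups were far apart compared with their spread. Cdt1 (1.73), Mcm2 (1.45), Cdc6 (1.32), Orc1 (1.25), Mcm4 (1.19), Mcm6 (1.11), Gmnn (0.92), Mcm3 (0.67) and Orc6 (0.33) followed in this order. Cdc6 stood at 0.460 and 0.518 RPKM in Ctrl and 2.77 and 2.64 in 2Runx1, a 5.53-fold difference at a low level, which the pseudocount of 1 reduces on the log2 scale.

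The initiation genes rose together, by 1.67 (Gins2), 1.63 (Cdc45), 1.23 (Mcm10) and 1.08 (Gins1). Cdc45 went from 1.76 and 1.67 to 7.52 and 7.24 RPKM (adjusted p = 3.54e-08), which is 28.6% of its E13.5 Ctrl level.

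Of the 14 polymerase and clamp genes, 13 rose, with a median of 0.84. On the log2(RPKM + 1) scale the largest increases were in Lig1 (1.35 ± 0.08), which went from 4.22 and 4.48 to 13.2 and 12.1 RPKM, Prim1 (1.32) and Rfc4 (1.31). As a ratio Pole rose most (3.10-fold, against 2.91-fold for Lig1). Pcna rose by the least of the 13, from 66.3 and 63.3 to 82.0 and 87.1 RPKM (0.38 ± 0.05, adjusted p = 0.000178), and Pola2 stood at 39.5 and 38.9 and 43.7 and 40.2 RPKM, without overlap but within the test's error (95% interval −0.04 to 0.23).

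All 5 nucleotide supply genes rose. Rrm2 went from 3.01 and 3.10 RPKM in Ctrl to 14.5 and 15.5 in 2Runx1 (1.98 ± 0.05, adjusted p = 8.94e-09), yet that is 12.6% of its E13.5 Ctrl level. Tk1 went from 4.13 and 3.58 to 18.6 and 17.5 RPKM (1.97 ± 0.11, adjusted p = 4.13e-07), 45.6% of its E13.5 Ctrl level. Tyms (1.12) and Rrm1 (0.91) rose as well, and Dut (0.24 ± 0.06, adjusted p = 0.0169) only just passed. The call of Dut was lost without liver Ctrl replicate 2 (adjusted p = 0.119) and without 2Runx1 replicate 1 (adjusted p = 0.114).

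The 6 G1/S regulators also rose: Dtl by 1.77 ± 0.06 (adjusted p = 2.49e-08), E2f8 by 1.37, E2f1 and Ccne1 by 1.18 each, Ccne2 by 0.99 and E2f2 by 0.81. Ccne1 went from 0.447 and 0.774 to 2.78 and 2.49 RPKM, 12.5% of its E13.5 Ctrl level, the lowest such share of the 48.

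Among chromatin and checkpoint genes 7 of 8 rose. Uhrf1 had the largest increase of all 48 on the log2(RPKM + 1) scale, from 2.25 and 1.97 RPKM in Ctrl to 13.3 and 11.4 in 2Runx1 (2.10 ± 0.11, adjusted p = 3.8e-07), with Hells (1.62 ± 0.07) next in this role. As ratios, Exo1 (6.63-fold), Dtl (6.15-fold) and E2f8 (5.87-fold) rose more than Uhrf1 (5.85-fold). Chaf1a (1.37), Exo1 (0.95), Chaf1b (0.89), Brca1 (0.87) and Clspn (0.61) followed. Exo1 stood at 0.199 and 0.204 RPKM in Ctrl and 1.13 and 1.53 in 2Runx1, and Timeless at 13.7 and 14.0 and 15.7 and 14.9.

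The other lists moved alongside in liver 2Runx1. Of 55 other replication and repair genes 44 were higher and 0 lower (median 0.47), among them Slfn9 (1.89 ± 0.13) and Cdca7 (1.83). All 30 mitosis genes were higher (median 1.62), led by Ccnb1 (2.16 ± 0.07), Ube2c (2.12) and Top2a (2.00), encoding topoisomerase IIα. Of 24 tested G1 regulators 11 were higher and 1 lower, where 17.1% and 8.14% of all genes were. Myc (1.39 ± 0.11), a transcription factor of growth, was the most increased, followed by Cdkn2c (1.01), a CDK4/6 inhibitor gene, Tfdp1 (0.92) and Ccnd3 (0.92), encoding cyclin D3. Cdkn1c was the gene that fell (−1.11 ± 0.14, adjusted p = 0.00018), and Cdkn1a stood at 60.3 and 61.3 RPKM in Ctrl and 52.3 and 53.6 in 2Runx1 (−0.20 ± 0.12, adjusted p = 0.274).

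Markers of other cell types were set beside the liver rise. Summed macrophage markers were 869 to 870 RPKM in Ctrl and 754 to 758 in 2Runx1 (1 of 12 called higher, 2 lower), most of it Mrc1, at 679 and 674 and then 571 and 569.9 RPKM. Members of this list went both ways. Clec4f stood at 17.96 and 18.3 and then 24.1 and 23.1, and Lyz2 at 55.7 and 60.1 and then 69.9 and 64.9. C1qb stood at 56.4 and 53.1 and then 27.0 and 27.4, and Marco at 2.19 and 2.19 and then 1.12 and 1.66. Summed erythroid markers were 35.6 to 37.1 RPKM in Ctrl and 21.3 to 23.6 in 2Runx1 (0 of 9 higher, 2 lower; Hba-a1, Hbb-bt and Hbb-bs at 0 in both groups, and Gata1 in 2Runx1). Pan-haematopoietic markers were at 13.6 to 15.8 and 16.7 to 17.2 RPKM (1 of 6 higher, 1 lower), and hepatocyte markers at 156 to 167 and 155 RPKM (1 of 11 higher, 0 lower). Megakaryocyte markers were at 38.7 to 44.9 and 38.4 to 39.7 RPKM (1 of 4 higher, Gp6 and Treml1 at 0), and neutrophil and mast cell markers at 2.90 to 6.99 and 2.87 to 4.50 (0 of 6 called, Mcpt4 at 0). Mesenchymal markers were lower in 2Runx1, at 39.9 to 44.8 RPKM against 85.8 to 88.0 (2 of 9 lower), and lymphocyte markers stayed under 3 RPKM in all. Of the 10 endothelial markers 4 were lower and 1 higher (summed 4273 to 4473 against 4843 to 4915 RPKM). The part of any of these cells in the rise was not tested.

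The response to 2 copies was larger in the liver than at E13.5 by a direct test. The interaction was called for 45 of the 48 genes, all with the larger rise in the liver, where 8.2% of all genes were called in that direction and 2.89% in the other. The median was 1.00. Rrm2 changed by −0.06 ± 0.07 at E13.5 and by 1.98 ± 0.05 in the liver, an interaction of 2.04 ± 0.09 (adjusted p = 7.26e-07). Uhrf1 (1.95), Hells (1.88), Dtl (1.79), Tk1 (1.76), Mcm5 (1.67), Mcm7 (1.63), Cdc45 (1.62), Gins2 (1.54) and Cdt1 (1.48) completed the 10 largest. Dut (0.19 ± 0.10), Timeless (0.02 ± 0.18) and Pola2 (−0.01 ± 0.09) were not called. Runx1 itself differed in the same way (1.68 ± 0.16, adjusted p = 0.000102), reaching 78.1 and 78.4 RPKM in liver 2Runx1 and 22.7 and 25.2 at E13.5. Starting level, organ, age, route of tamoxifen and Runx1 level differ between the 2 stages. So may the time from tamoxifen to harvest, which was 24 h at E13.5 and is not named for the liver. Their parts cannot be told apart.

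Among the neighbouring lists, 29 of 55 other replication genes and 29 of 30 mitosis genes showed the same interaction and 0 the reverse. Of all genes 8.2% and 2.89% did. For 1 copy, no difference between the effects at E13.5 and E9.5 passed the test in these 48 genes: 0 interactions were called by limma and 0 by limma-voom, where 1.16% and 1.1% of all genes were called higher and lower, and 7 had an unadjusted p under 0.05. The widest were Cdt1 (0.49 ± 0.19, 95% interval 0.08 to 0.90) and Hells (−0.40 ± 0.12, 95% interval −0.66 to −0.14).

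Open chromatin at the starts of these genes was read from the authors' ATAC-seq peak lists, 1 per group, with no replicate check. A start counted as open where a peak lay within 500 bases. At each embryonic group 39 of the 40 genes with a start had a peak (97.5%), where 92.5% to 93.0% of 9848 tested genes had one. In liver Ctrl and liver 2Runx1 37 of 40 had one (92.5%), where 84.5% and 84.3% of tested genes had. The embryonic lists held 80857 to 100268 peaks and the liver lists 39019 and 39469, so fewer peaks were listed in the liver genome-wide.

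A listed peak could stand at the start of a gene with little RNA. Uhrf1 and Cdc6, at 2.25 and 1.97 and 0.460 and 0.518 RPKM in liver Ctrl, and Mcm5, at 10.2 and 9.76, had a peak at the start in all 7 lists, with a −log10 q in liver Ctrl of 63.0, 23.2 and 121 in the authors' lists. Prim1 had none in either liver list, Brca1 none in liver Ctrl and Tk1 none in liver 2Runx1, although the RNA of all of these was higher in liver 2Runx1. Tk1's peak in liver Ctrl was weak, at a −log10 q of 4.08, and Brca1's in liver 2Runx1 reached 31.5. With 1 list per group these differences have no error. Rrm2 had no peak in any of the 7 lists, while its RNA was among the highest of the 48 in the embryo. The nearest peak lay 26307 to 32632 bases from the start whose window is printed above. Why no peak was listed there was not tested, so the Rrm2 start cannot be called closed.

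**Figure D4:**
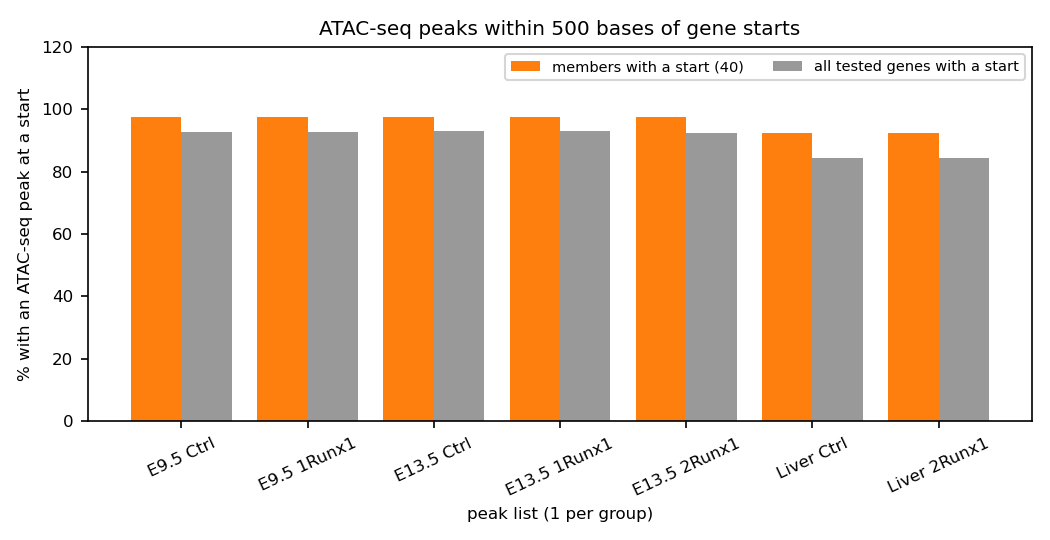
Share of genes with an ATAC-seq peak within 500 bases of a start, in percent, in the 7 peak lists (1 per group, no replicates); orange bars are the 40 genes of the group that have a start, grey bars the 9848 tested genes that do. The orange bars stand at 97.5% in the 5 embryonic lists and at 92.5% in both liver lists, above the grey bars in each.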

How the data were processed

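Expression was read from the authors' deposited table of RPKM values for 13 libraries of sorted endothelial cells; 0 of its sample columns were left unused. Per the submitters' processing notes, STAR 2.7.3a, featureCounts of Subread 2.0.0 and edgeR appear among the tools, with Trim Galore 0.6.4, Bowtie2 2.3.5.1 and MACS2 2.1.4, and the build is mm10; the sources read here do not tie tools to steps. The peak lists deposited by the authors, 1 per group, give −log10 q values and fold enrichment (a ratio) from MACS2. RPKM steps gave whole reads for 100% of the 20720 genes above 0 (tolerance 0.001 reads), from 37754246 to 44540403 per library. These reads served limma-voom as an alternative, with the library sizes of the RPKM values, further factor included.

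Genes with at least 1 RPKM in at least 2 libraries (12546) were fitted as log2(RPKM + 1) with limma 3.58.1 in R 4.3.3, with 7 group means over all 13 libraries, a trended prior and 10 contrasts, and Benjamini-Hochberg adjustment over all genes tested. The fit has 6 residual degrees of freedom, so the groups share 1 estimate of the spread. The method was tested on simulated data. Every gene of the group was accounted for; called genes were named with values, up to 10 per direction by size of the difference, at least 1 gene of each role was given in every library, up to 5 called genes per comparison were named from other lists, and Runx1 and Cdkn1a were given as context. The group and all lists were chosen with earlier results of these data known. Gene starts and promoter windows came from RefSeq's GRCm38.p6, and a peak within 500 bases counted as at the start. Figures and tables used Python 3.11.15 with pandas 2.3.3. H3K4me1 and input data were not used here.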

Additional observations from a re-analysis of the deposited data

Results flagged for a closer look

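The response to 2 Runx1 copies differed between adult liver and E13.5 in 45 of the 48 genes, by a test of the difference itself (the interaction term in limma, adjusted over all genes tested). The 10 largest differences on the log2(RPKM + 1) scale, each with the larger rise in the liver, were 2.04 in Rrm2, 1.95 in Uhrf1, 1.88 in Hells, 1.79 in Dtl, 1.76 in Tk1, 1.67 in Mcm5, 1.63 in Mcm7, 1.62 in Cdc45, 1.54 in Gins2 and 1.48 in Cdt1. Their adjusted p lay between 7.26e-07 and 0.000591. The E13.5 side of each value rests on 1 Ctrl library. No group held the 4 or more libraries needed to look for a library far from the rest.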

How the results depend on the processing

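No called difference changed sign and no gene was newly called in the opposite direction under another pseudocount (0.1), no filter on low values, quantile normalization, a fit of only the groups compared, a replicate block, limma-voom on recovered reads, and with each replicate left out. The median of the 48 genes changed sign where it was near 0: for 1 copy at E13.5 it was −0.03 and became 0.0099 without 1Runx1 replicate 2, and the interaction for 1 copy was −0.0064 and became 0.048 without that library, and 0.00050 and 0.00013 without E9.5 Ctrl replicate 2 and E9.5 1Runx1 replicate 2. Among single genes 4495 values kept their side of the threshold, 18 passed it newly and 95 no longer passed. The count of genes called for 1 copy at E13.5 was 3 and became 5 with quantile normalization and 0 in a fit of only the groups compared, and leaving out 1 replicate gave 2 to 4. The count for 2 copies against 1 at E13.5 was 6 and became 9 with quantile normalization, 8 with limma-voom, 3 with no filter, 0 in a fit of only the groups compared, and 1 to 5 with 1 replicate left out. The cause was not tested, though the fits of only the groups compared hold fewer samples. The liver rise had 45 to 46 genes called higher. Liver was lower than E9.5 in 47 genes and higher in 0 to 1, lower than E13.5 in 46 and higher in 1, and E13.5 was lower than E9.5 in 37 to 41 and higher in 0 to 1. The interaction of liver with E13.5 was called for 38 to 45. The liver median difference ran from 0.95 with quantile normalization to 1.53 with limma-voom.

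With the replicate block, the counts were 38, 47 and 48 for the 3 comparisons between stages (E13.5 with E9.5, liver with E13.5, liver with E9.5), 0 for 1 copy at E9.5, 2 for 1 copy at E13.5, 0 for 2 copies at E13.5, 5 for 2 copies against 1, 46 in the liver, and 0 and 44 for the interactions of 1 and of 2 copies. Same-numbered libraries deviated little together, with correlations of −0.061 to 0.107. Whether they share more than a number is not stated in the labels, and these correlations cannot settle it. Groups of 1 or 2 libraries limit the precision most at E13.5. With a −log10 q of at least 5, or peaks within 100 bases, 39 starts kept a peak in each embryonic list, 35 to 37 in liver Ctrl and 35 to 36 in liver 2Runx1.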
